A study of Canis lupus familiaris with 5 samples.

Results

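The genes described here are 40 genes of sugar breakdown and of the response to low oxygen, followed across 5 canine lymphoid tumour cell lines. The members were taken by gene symbol: every probe set annotated with one of the 40 symbols was read, and the probe set with the highest mean over the lines stood for the gene, with its further probe sets checked. Of the 40 genes, 39 were measured, by 95 probe sets, among 15115 genes with a probe set of their own. LDHB, which encodes the heart-type subunit of lactate dehydrogenase, was left out because its 2 probe sets also carried other gene symbols.

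Glycolysis splits glucose into pyruvate and yields energy without oxygen, and the pyruvate can then leave the cell as lactate or enter the mitochondria. Cells short of oxygen stabilise the alpha subunits of the hypoxia-inducible factors, which raise the transcription of glucose transporters, glycolytic enzymes and genes of survival, vessel growth and matrix. Activated and malignant lymphocytes are known for rapid glycolysis even where oxygen is plentiful, and many glycolytic steps are served by several isozymes encoded by separate genes.

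Total RNA of each line was hybridised to 1 Affymetrix canine array. The lines were 17-71, from a B-lymphoid malignancy, GL-1, a B-cell leukemia, CL-1, a primitive a/b T-cell leukemia, CLL-1390, a primitive T-cell leukemia, and CLGL-90, an LGL leukemia listed as a T-cell line. All were grown without treatment in RPMI medium with fetal bovine serum, and the labels give no oxygen level, glucose level or cell density at harvest. The labels' lineage gave 2 B-labelled lines (17-71 and GL-1) and 3 T-labelled lines (CLL-1390, CLGL-90 and CL-1). No line had a second array, so single lines are described without a test, and the spread within a group is the spread between different tumours, not between replicates of 1 line.

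Values are log2 intensities, so a difference of 1 is a doubling of signal. Array medians ran from 6.87 to 6.99. The 59 control probe sets for sequences that dogs lack reached 6.39 to 6.76 and gave a measure of background: a value under an array's highest control gives only an upper bound. The lineage labels were borne out only in part by marker genes. Of 11 B-lineage markers tested, 4 reached log2 8 in 17-71, 1 in GL-1 and 0 to 1 in the T-labelled lines, and BTK, a kinase of B-cell receptor signalling, stood at 11.52 in 17-71, 11.46 in GL-1 and 11.23 in the T-labelled CLL-1390. Of 13 T-lineage markers, 12 reached log2 8 in CLGL-90, 6 in CL-1, 7 in CLL-1390, 7 in GL-1 and 4 in 17-71. CD3D, a chain of the T-cell receptor complex, stood at 9.78 in the B-labelled GL-1 and at 5.44 in the T-labelled CL-1. Of 9 cytotoxic markers, 8 reached log2 8 in CLGL-90 and 1 to 3 in the others. Summed over 11 myeloid markers, the log2 values came to 93.7 for GL-1, 95.1 for 17-71 and between 64.3 and 67.8 for the T-labelled lines. Among 11 fibroblast, endothelial and epithelial markers, only KRT18 reached log2 8, at 9.40 in 17-71 and 11.55 in CLGL-90. These marker differences run with the lines throughout, and their part in the results that follow was not tested.

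The core enzymes of glycolysis read well above background in every line, while transporters, minor isozymes and several hypoxia genes differed widely between lines. All 39 measured members passed the filter on low values (log2 5 on at least 2 arrays). In all 5 lines, 30 of the 39 lay above the highest control, a share not counted over all genes. By single line, 34 to 36 of the 39 did, as did 9957 to 10528 of all 14162 genes tested. CA9, a carbonic anhydrase known as a marker of hypoxic tumours, was the only member above it in no line (5.10 to 5.68). Of all genes tested, 19.3% were above it in no line. A range over the lines of at least log2 2 was found for 18 of 39 members (46.2%), against 14.2% of all 14162 genes tested. Among genes that reached log2 8 in at least 1 line the figures were 18 of 33 members (54.5%) and 23.3%. The median range was 1.51 for the members, 0.76 for all genes tested and 1.18 for genes that reached log2 8. The members had been chosen with earlier results of these data known. The part of that choice in these and later shares was not tested.

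**Figure D1:**
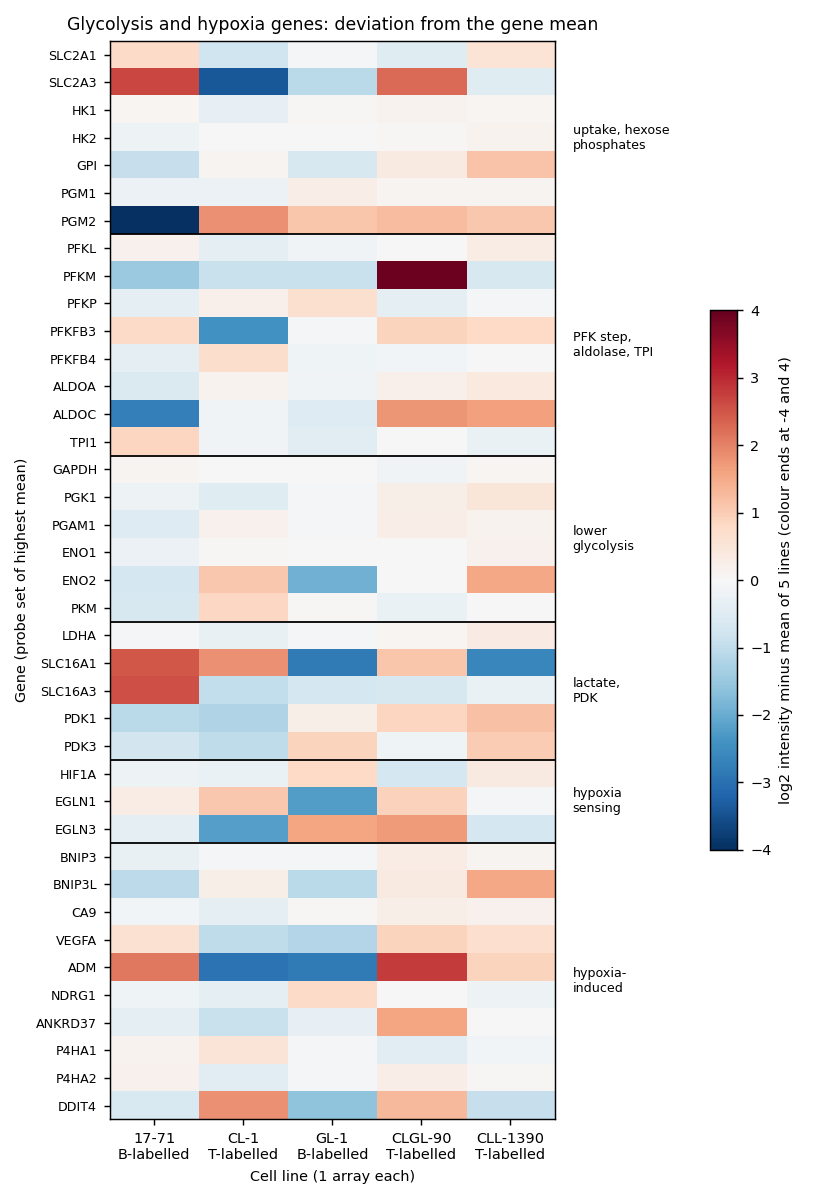
Heat map of the 39 measured members (vertical axis, ordered by role) in the 5 lines (horizontal axis, 1 array each), coloured by log2 intensity minus the gene's mean over the lines, with colours ending at -4 and 4. The darkest cells are PGM2 in 17-71 (dark blue) and PFKM in CLGL-90 (dark red), and the rows of GAPDH, HK2 and ENO1 are nearly white.

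Of the glucose transporters, SLC2A3 (GLUT3), a high-affinity carrier, was among the most variable members. It stood at 13.75 in 17-71, 7.68 in CL-1, 10.00 in GL-1, 13.34 in CLGL-90 and 10.59 in CLL-1390. 17-71 and CLGL-90 were thus high, GL-1 and CLL-1390 lay in between, and CL-1 was 2.32 below the next line. Its 4 probe sets gave the same 2 high lines and the same lowest line, with ranges of 5.65 to 6.07. SLC2A1 (GLUT1), the widespread basal carrier, varied less: 10.47 in 17-71, 8.90 in CL-1, 9.64 in GL-1, 9.22 in CLGL-90 and 10.25 in CLL-1390. In SLC2A1 too, 17-71 was the highest line. A low bulk value cannot tell fewer expressing cells from less RNA per cell.

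Hexokinases, which trap glucose in the cell as its phosphate, hardly differed by the probe set of highest mean. HK1 ranged from 8.79 to 9.28 and HK2 from 7.58 to 7.91. The further probe sets of HK1 had ranges of 1.06 and 1.005, both with GL-1 highest and CLL-1390 lowest. The second probe set of HK2 had a range of 0.80, with CL-1 highest. GPI, which converts glucose phosphate to fructose phosphate, stood at 11.60 in 17-71, 12.64 in CL-1, 11.89 in GL-1, 12.88 in CLGL-90 and 13.66 in CLL-1390. Both B-labelled lines lay below all 3 T-labelled lines, and without CLL-1390 the range of GPI was 1.28 in place of 2.06.

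The phosphoglucomutases interconvert the phosphates of glucose on the way to and from glycogen and, in the case of PGM2, act also on pentose phosphates. PGM2 stood at 3.93 in 17-71, 11.03 in CL-1, 10.31 in GL-1, 10.41 in CLGL-90 and 10.27 in CLL-1390. The 4 other lines lay within 0.77 of each other, while 17-71 was 6.34 below the lowest of them and under its highest control (6.60), so that the gap is known only as a bound. With every value raised to at least its array's highest control, the range of PGM2 was still 4.43. The further probe sets of PGM2 stood at 4.14 and 4.42 in 17-71 against 9.54 to 10.49 and 8.08 to 9.02 in the other lines.

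PGM1 gave conflicting readings. Its brightest probe set was flat, from 11.92 to 12.44. Its 4 further probe sets had ranges of 3.18 to 4.31, and in each of the 4 the line 17-71 was lowest, by 2.003 to 2.70. No choice between the readings of PGM1 can be made from the array alone, since the files hold no probe positions.

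**Figure D2:**
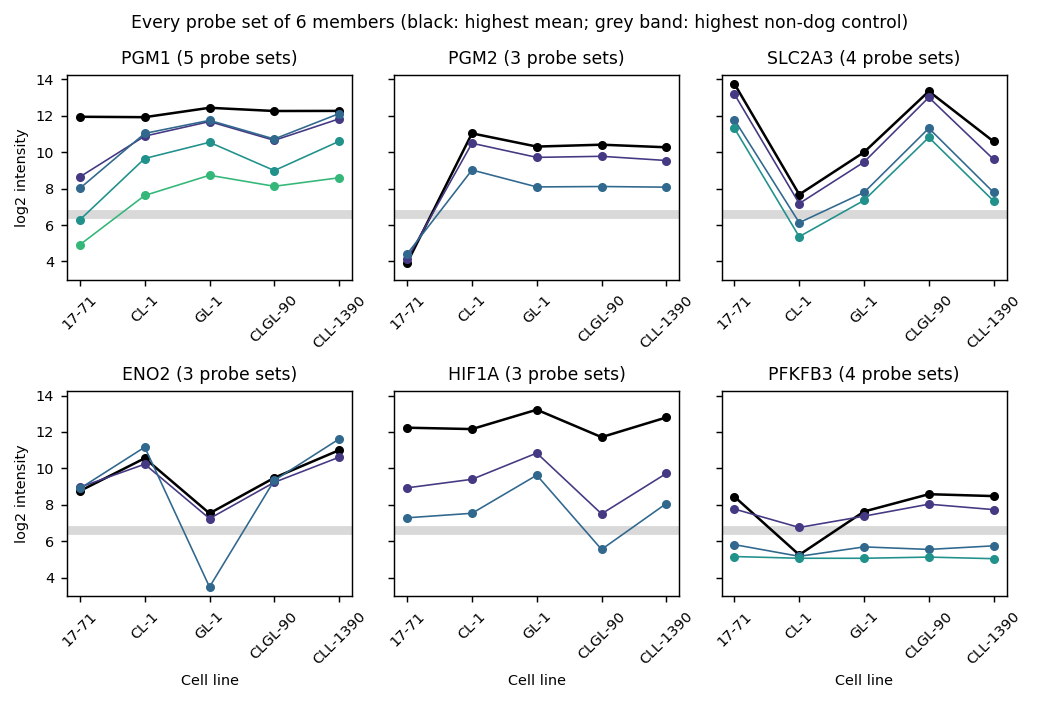
Log2 intensity (vertical axis) of every probe set of 6 members in the 5 lines (horizontal axis), with the probe set of highest mean in black and a grey band at the arrays' highest non-dog controls (6.39 to 6.76). The probe sets of PGM2 and of SLC2A3 share their lowest line, those of HIF1A share their highest and lowest lines but differ in range, the 3 of ENO2 differ in depth at GL-1, and those of PGM1 and PFKFB3 disagree on how far 17-71 or CL-1 lies below the rest.

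At the phosphofructokinase step, which commits sugar to glycolysis, the liver-type PFKL (10.66 to 11.33) and the platelet-type PFKP (10.38 to 11.40) were present at similar values in every line. The muscle-type PFKM stood at 6.48 in 17-71, 7.05 in CL-1, 7.05 in GL-1, 11.86 in CLGL-90 and 7.30 in CLL-1390. CLGL-90 was 4.56 above the next line, and without it the range of PFKM was 0.83. PFKM had 1 probe set, so no second reading exists.

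PFKFB3, which makes the fructose bisphosphate that activates phosphofructokinase, stood at 8.44 in 17-71, 5.25 in CL-1, 7.63 in GL-1, 8.58 in CLGL-90 and 8.48 in CLL-1390. CL-1 was 2.38 below the next line and under its highest control. Of the 3 further probe sets of PFKFB3, 2 never rose above the controls and tell nothing of this gap, and the third had CL-1 lowest by 0.62, with a range of 1.28. Without CLL-1390 that probe set had the highest mean, so the gap of log2 2 was lost, and without CL-1 the range of PFKFB3 was 0.95. Its relative PFKFB4 ranged from 6.27 to 7.37 and was above the highest control in CL-1 alone.

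Aldolases cut the six-carbon sugar, and the major form ALDOA was high in all lines (12.67 to 13.67). ALDOC, the form best known from brain, stood at 8.31 in 17-71, 10.91 in CL-1, 10.56 in GL-1, 12.82 in CLGL-90 and 12.69 in CLL-1390. CLGL-90 and CLL-1390 were high and 17-71 was 2.24 below the next line; the second probe set of ALDOC had the same 2 high lines and a range of 4.60. TPI1, the triose isomerase, ran the other way, at 13.77 in 17-71 against 12.47 to 12.89 in the other lines.

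Of the enzymes of lower glycolysis, GAPDH, ENO1, PGAM1 and PGK1 read high in every line and varied little. GAPDH ranged from 14.09 to 14.36, ENO1 from 13.96 to 14.36, PGAM1 from 13.05 to 13.84 and PGK1 from 12.23 to 13.20. The highest values on these arrays were 14.83 to 15.13, and whether probe sets so close to that limit are compressed was not tested. PKM, the pyruvate kinase of most tissues, varied more, from 9.85 in 17-71 to 11.33 in CL-1. Its second probe set had a range of 1.91, with CL-1 highest and CLGL-90 (9.11) just below 17-71 (9.17).

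ENO2, the enolase known as a marker of neurons, varied most in lower glycolysis. It stood at 8.76 in 17-71, 10.56 in CL-1, 7.53 in GL-1, 9.48 in CLGL-90 and 11.00 in CLL-1390, so that both B-labelled lines lay below the T-labelled ones. All 3 probe sets of ENO2 had GL-1 lowest and CLL-1390 highest, but their ranges differed: 3.47, 3.37 and, in the probe set that read 3.49 in GL-1, 8.12.

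LDHA, which turns pyruvate into lactate, was high and even (13.49 to 14.12). The carriers that move lactate across the membrane were not. SLC16A1 (MCT1) stood at 9.47 in 17-71, 8.79 in CL-1, 4.14 in GL-1, 8.09 in CLGL-90 and 4.36 in CLL-1390. GL-1 and CLL-1390, lines of different lineage label, both lay under their highest controls, and with values raised to those controls the range of SLC16A1 was 2.80 in place of 5.33. SLC16A3 (MCT4), the lactate exporter of strongly glycolytic cells, stood at 10.67 in 17-71, 7.10 in CL-1, 7.37 in GL-1, 7.45 in CLGL-90 and 7.81 in CLL-1390. 17-71 was 2.86 above the next line, and without it the range of SLC16A3 was 0.71. Each lactate carrier had 1 probe set.

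Pyruvate dehydrogenase kinases hold pyruvate out of the mitochondria. PDK1 stood at 10.15 in 17-71, 10.01 in CL-1, 11.47 in GL-1, 12.10 in CLGL-90 and 12.39 in CLL-1390. PDK3 stood at 7.91 in 17-71, 7.63 in CL-1, 9.55 in GL-1, 8.48 in CLGL-90 and 9.66 in CLL-1390. In both kinases 17-71 and CL-1 were the lowest lines and CLL-1390 the highest, and their second probe sets also varied, by 2.99 for PDK1 and 2.20 for PDK3. In the second probe set of PDK1, 17-71 was lowest (5.94) and CL-1 next (6.96).

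In 17-71 the transporters and a part of the enzymes stood at opposite ends of their ranges. The 4 transporters of glucose and lactate (SLC2A1, SLC2A3, SLC16A1 and SLC16A3) were all highest in 17-71, where their median lay 3.25 above the median of the other lines; 16.1% of all genes tested were highest in that line. Of the 20 glycolytic enzymes and their regulators, 11 were lowest in 17-71 (55%), among them GPI, PGM2, ALDOA, ALDOC, PGAM1, ENO1 and PKM, against 17.7% of all genes. The other 9 were not lowest there, and TPI1 and GAPDH were highest. PGM1 was among the 9 by its brightest probe set, while its 4 further probe sets had 17-71 lowest. Of the 20, 5 lay above the median of the other lines in 17-71, as did 6678 of all 14162 genes. The median deviation of the 20 genes in 17-71 was -0.33; PFKP was lowest by only 0.0026, and PFKM and PFKFB4 lay under the highest control in that line. CLL-1390 lay above the median of the other lines in 18 of the 20, by a median of 0.17, as it did in 8173 of all 14162 genes, by a median of 0.05. GL-1 lay below it in 17 of the 20, with a median deviation of -0.09, and in 7946 of all 14162 genes, with a median of -0.04. The division into transporters and enzymes was made after the values were seen. The count of transporters highest in 17-71 was 4, and that of enzymes lowest there 10 to 12, under quantile normalization, centring and each other alternative that kept all arrays.

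**Figure D3:**
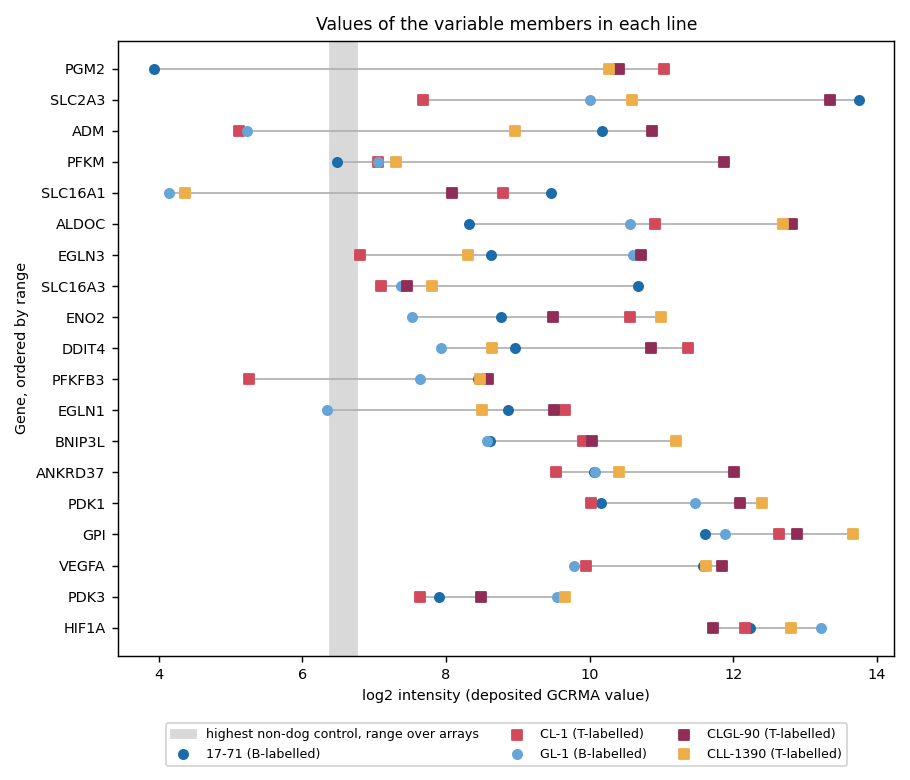
Log2 intensity (horizontal axis) of HIF1A and the 18 members with a range of at least log2 2 (vertical axis, ordered by range), 1 point per line, circles for B-labelled and squares for T-labelled lines, with a grey band at the arrays' highest non-dog controls. PGM2 in 17-71, PFKFB3 in CL-1 and PFKM in CLGL-90 stand apart from 4 clustered points, whereas SLC16A1 and ADM each have 2 lines under the band.

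Of the oxygen-sensing genes, HIF1A encodes the alpha subunit that is kept low mainly by protein breakdown, so its transcript says little of its protein. HIF1A stood at 12.23 in 17-71, 12.16 in CL-1, 13.22 in GL-1, 11.71 in CLGL-90 and 12.80 in CLL-1390. GL-1 was highest and CLGL-90 lowest in all 3 probe sets of HIF1A, with ranges of 1.51, 3.34 and 4.08 in order of falling mean.

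The prolyl hydroxylases EGLN1 and EGLN3 mark that subunit for breakdown when oxygen is present, and EGLN3 is itself raised by hypoxia. EGLN1 stood at 8.86 in 17-71, 9.65 in CL-1, 6.34 in GL-1, 9.50 in CLGL-90 and 8.50 in CLL-1390. GL-1 was 2.16 below the next line and under its highest control, and without GL-1 the range of EGLN1 was 1.15. The second probe set of EGLN1 never rose above the controls (4.15 to 4.62) and tells nothing of this gap. EGLN3 stood at 8.63 in 17-71, 6.80 in CL-1, 10.60 in GL-1, 10.72 in CLGL-90 and 8.30 in CLL-1390. GL-1 and CLGL-90 were thus high in EGLN3 and CL-1 low, and its second probe set had the same highest and lowest lines, with a range of 4.19.

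Of the 10 genes known to be induced by hypoxia, ADM, which encodes the vessel-widening peptide adrenomedullin, varied most. It stood at 10.17 in 17-71, 5.11 in CL-1, 5.23 in GL-1, 10.87 in CLGL-90 and 8.96 in CLL-1390. CL-1 and GL-1 were under their highest controls, and with values raised to them the range of ADM was 4.48 in place of 5.76. VEGFA, the vessel growth factor, followed the same division at 11.58 in 17-71, 9.94 in CL-1, 9.79 in GL-1, 11.84 in CLGL-90 and 11.62 in CLL-1390. The second probe set of VEGFA also had CL-1 and GL-1 lowest, with a range of 1.06 in place of 2.06.

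DDIT4 (REDD1), a brake on mTOR signalling, did not share that division: it stood at 8.96 in 17-71, 11.37 in CL-1, 7.93 in GL-1, 10.86 in CLGL-90 and 8.63 in CLL-1390. CL-1 and CLGL-90 were the high lines of DDIT4, and its second probe set varied by 3.25. ANKRD37 stood at 10.05 in 17-71, 9.53 in CL-1, 10.08 in GL-1, 12 in CLGL-90 and 10.41 in CLL-1390. CLGL-90 was 1.59 above the next line in ANKRD37, and without it the range was 0.88 in place of 2.47. A second probe set of ANKRD37 varied by 1.97 with CLGL-90 highest, and the remaining one never rose above the controls. BNIP3L (NIX), a receptor for the removal of mitochondria, stood at 8.61 in 17-71, 9.90 in CL-1, 8.57 in GL-1, 10.04 in CLGL-90 and 11.20 in CLL-1390. Both B-labelled lines were lowest, and without CLL-1390 the range of BNIP3L was 1.46 in place of 2.63.

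The remaining hypoxia-induced members differed less. BNIP3, the relative of BNIP3L, ranged from 6.68 to 7.27, NDRG1 from 5.997 to 7.17 and the collagen prolyl hydroxylase subunits P4HA1 and P4HA2 from 9.36 to 10.32 and from 7.21 to 7.94. Of the 6 probe sets of P4HA2, 2 varied by more than log2 2, at 2.29 and 2.69. Of the 10 hypoxia-induced genes, 6 were highest in CLGL-90, against 27.0% of all genes tested. In that line 9 of the 10 lay above the median of the other lines, as did 8195 of all 14162 genes. The median deviation of the 10 there was 0.57, against 0.06 over all genes. The 6 were BNIP3, CA9, VEGFA, ADM, ANKRD37 and P4HA2, and CA9 lay under the controls. The count was 5 or 6 under each alternative that kept all arrays. In CL-1, 5 of the 10 were lowest, against 37.0% of all genes.

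Single lines stood apart by at least log2 2 more often on the low side. A line lay that far below every other line in 5 members (12.8%; SLC2A3, PGM2, PFKFB3, ALDOC and EGLN1), against 1.21% of all genes tested, and that far above in 2 (5.13%; PFKM and SLC16A3), against 2.97%. With values raised to the highest controls, 3 members kept a gap below of that size. By line, 17-71 held the gaps of PGM2 and ALDOC (0.247% of all genes had such a gap below in 17-71) and of SLC16A3 above the rest (0.734%). CL-1 held those of SLC2A3 and PFKFB3 (0.395%), GL-1 that of EGLN1 (0.148%), and CLGL-90 that of PFKM (0.621%). CLL-1390 had none (0.381% of all genes had such a gap above and 0.254% below in CLL-1390), and neither CL-1 (0.89%) nor GL-1 (0.346%) held a gap above.

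By rank alone, the members' highest values were spread over the lines much as those of all genes. Of the 39, 12 were highest in CLGL-90 (27.0% of all genes were), 11 in CLL-1390 (21.2%), 6 in 17-71, 6 in CL-1 (23.5%) and 4 in GL-1 (12.1%). The lowest value fell in CL-1 for 17 members, in 17-71 for 12, in GL-1 for 7 (16.0% of all genes), in CLGL-90 for 3, namely GAPDH, HIF1A and P4HA1 (15.2%), and in CLL-1390 for 0 (14.1%). As shares of the 39, 30.8% were highest in CLGL-90 and 28.2% in CLL-1390, while 30.8% were lowest in 17-71 and 43.6% in CL-1.

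The lineage groups were set against each other in limma over all 14162 genes, with Benjamini-Hochberg adjustment at 0.05. None of the 39 members passed (0 of 39; 0.00706% of all genes did, a single one, LYZ), and 5 had an unadjusted p under 0.05, which is 12.8% of members against 3.52% of all genes. The 5 were GPI, ALDOA, ALDOC, ENO2 and BNIP3L, each with lower values in both B-labelled lines and each with an adjusted p of 0.9999 in limma. GPI stood at 11.74 ± 0.20 (mean ± SD, n = 2) in the B-labelled and 13.06 ± 0.53 (n = 3) in the T-labelled lines, differing by -1.32 (SE 0.36). The differences were -0.62 (SE 0.22) for ALDOA, -2.71 (SE 0.93) for ALDOC, -2.20 (SE 0.61) for ENO2 and -1.79 (SE 0.45) for BNIP3L. Tested over probe sets, 0 of 90 probe sets of members passed in limma (0.0136% of all probe sets did). An unadjusted p under 0.05 in limma was found for 7 (7.78%), all of the same 5 genes. The share of all probe sets with such a p was not counted.

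In 10 of the 39 members (25.6%) all T-labelled lines lay above both B-labelled lines, against 9.26% of all genes, and in 0 members was it the other way round, against 6.12%. Of all genes, 15.4% were separated in one direction or the other. Beside the 5 genes just named these were PFKM, PFKFB4, PGAM1, ENO1 and BNIP3. PFKFB4 was above the highest control in CL-1 alone, so that its separation rests largely on background readings. For PFKM the separation between CL-1 and GL-1 was only 0.003, and for ENO1 the difference was -0.20 (SE 0.17). The groups overlapped in the ENO1 probe set that read 13.80 in GL-1 and 13.76 in CLGL-90. They also overlapped in the ENO1 probe set that read 13.66 in GL-1 and 13.62 in CLGL-90. The other probe sets of ENO1 kept the groups apart. For BNIP3, CL-1 (6.92) lay just above GL-1 (6.90), and all its values (6.68 to 7.27) were near the highest controls. The median difference of the members was -0.20, against -0.03 over all genes. It kept its sign under every alternative but was smaller without 17-71 (-0.13), without CLL-1390 (-0.11) and without CLGL-90 (-0.06), and also -0.06 when CLGL-90 formed a group by itself. The summed myeloid markers given above also separate the 2 groups, and their part in these differences was not tested.

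**Figure D4:**
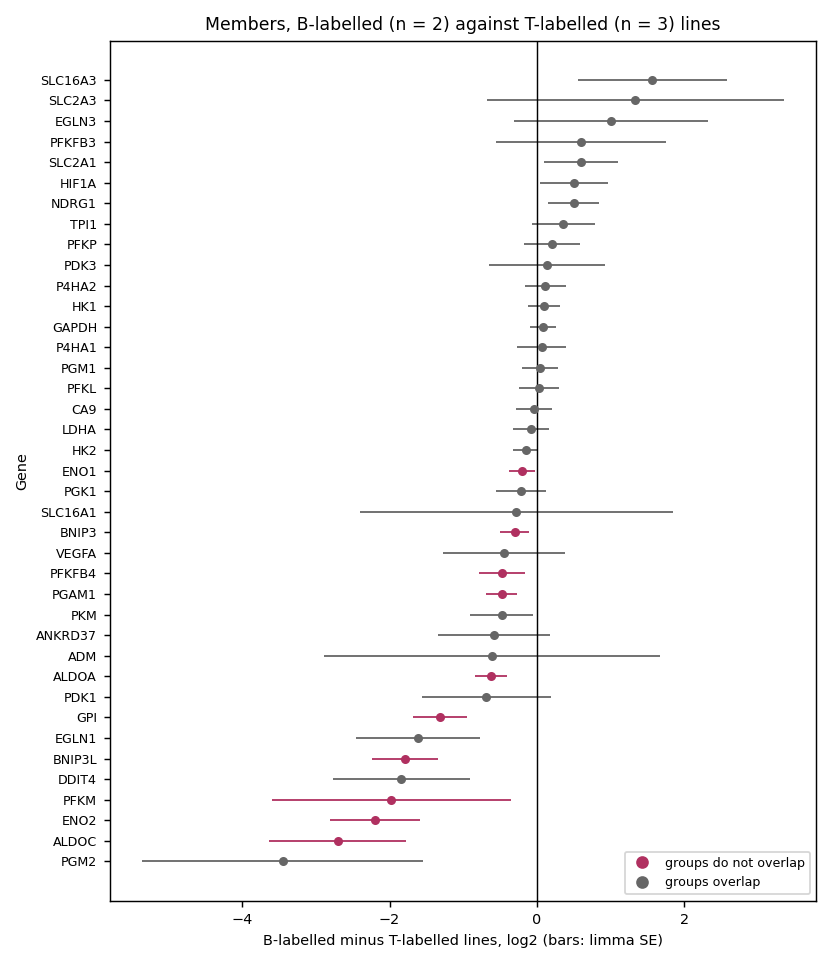
Difference in log2 intensity between the mean of the 2 B-labelled and the mean of the 3 T-labelled lines (horizontal axis, bars for the limma standard error) for each of the 39 measured members (vertical axis). The 10 members whose groups do not overlap, in red, all lie left of 0, that is higher in the T-labelled lines, and the longest bars belong to ADM, SLC16A1, SLC2A3 and PGM2, whose values differ as much within groups as between them.

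Other genes of the same pathways, from lists chosen with earlier results in view, gave 0 genes past the adjusted threshold in limma in each list. In the pentose phosphate pathway, which branches off to make NADPH and ribose, 6 of 9 genes were measured, none had an unadjusted p under 0.05 (0 of 6), and the median range was 0.74 with 0 genes reaching log2 2. The widest there were RPE (10.43 to 11.36), PGD (11.96 to 12.81) and TKT (12.85 to 13.48). Among 25 genes of pyruvate dehydrogenase and the citric acid cycle, 3 had an unadjusted p under 0.05 in limma, against 3.52% of all genes. The median range was 0.93, and 1 gene reached a range of log2 2, against 14.2% of all genes.

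That gene was PDK4, a further pyruvate dehydrogenase kinase, which stood at 9.70 in CL-1 and at 5.46 to 5.78 in the other 4 lines. CL-1 was the only line with PDK4 above its highest control. In PDK1 and PDK3 it was, with 17-71, among the lowest lines, and a relation between these kinases was not tested. PDK2 was highest in 17-71 (8.31 against 6.41 to 7.06), and SDHD, an anchor subunit of succinate dehydrogenase, ranged from 10.43 in CL-1 to 12.31 in CLL-1390.

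Among 23 other glycolytic and gluconeogenic genes, 3 had an unadjusted p under 0.05 in limma (3.52% of all genes did). A range of at least log2 2 was found for 4, against 14.2% of all genes and 23.3% of those that reached log2 8. PKLR, the pyruvate kinase of liver and red cells, was high in GL-1 (9.00) and CLL-1390 (10.07) and stood at 6.53 to 7.44 elsewhere. TIGAR, a phosphatase that draws sugar away from glycolysis, stood at 11.50 in 17-71 against 8.01 to 9.41, which is 2.10 above the next line. BPGM, which makes bisphosphoglycerate, stood at 9.41 in CLL-1390 against 6.68 to 7.69.

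Of 13 further subunits and regulators of the hypoxia factors, 0 had an unadjusted p under 0.05 in limma (3.52% of all genes did). A range of at least log2 2 was found for 2, against 14.2% of all genes. CITED2, which competes with the factors for a coactivator, was low in 17-71 (7.50) and CLGL-90 (7.11) and stood at 9.77 to 11.00 in the other lines. 17-71 and CLGL-90 were also the lines with the highest ADM and SLC2A3 values. CLL-1390, highest in CITED2, had a VEGFA value of 11.62, beside 11.58 in 17-71. A relation between CITED2 and these genes was not tested. VHL, the ligase subunit that removes the alpha subunits, ranged from 7.67 in CLL-1390 to 9.72 in CL-1, and EGLN2 from 8.21 in 17-71 to 10.20 in CL-1.

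Of 22 further hypoxia-induced genes, 3 had an unadjusted p under 0.05 in limma (3.52% of all genes did). A range of at least log2 2 was found for 5, against 14.2% of all genes, and the median range was 0.89. The repressor BHLHE40 stood at 12.07 in 17-71, 6.69 in CL-1, 10.45 in GL-1, 10.82 in CLGL-90 and 8.38 in CLL-1390, while its relative BHLHE41 was highest in CL-1 (11.09), stood at 9.47 in 17-71 and lay at 4.59 to 5.91 in the others. MXI1, an antagonist of MYC, ranged from 6.20 in CLL-1390 to 9.51 in CL-1. The CLGL-90 values of these 22 genes lay a median of 0.09 above the other lines, against 0.57 for the 10 hypoxia-induced members, and the difference between the lists was not tested.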

How the data were processed

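Total RNA of 5 canine cell lines was measured on Affymetrix canine arrays, 1 array per line. The deposited table gives a log2 intensity for every probe set, which the authors made with GCRMA (background correction, normalization and summary), per the submitters' processing notes; no source used here gives its version or a genome build. Lymph nodes, which the protocol also names, were not analysed here.

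Of 43035 probe sets, 101 control probe sets without a dog gene were left out; of the rest, 29264 carried a single gene symbol, 439 carried several (not used for genes) and 13231 lacked an annotation. The gene IDs of 36 of the 39 members were in the RefSeq gene table (assembly UU_Cfam_GSD_1.0), used only for names and neighbouring genes. The test took 36671 probe sets and 14162 genes, those with log2 5 or more on 2 or more arrays.

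The lineage groups were compared by a linear model (limma 3.58.1, R 4.3.3; lmFit, then eBayes; two-sided, residual df 3, prior df 1.74), with Benjamini-Hochberg adjustment over all genes or all probe sets; the fit was tested on simulated data. P-values set the difference of the group means against the spread between these lines, drawn towards that of all genes or probe sets. The 5 arrays limit the precision. Single lines were described by range and by the gap to the nearest other line. Members with a range of at least log2 2 that reached log2 8, and HIF1A, are given in every line; in each further list, up to 3 genes of the largest range that reached log2 8 are named. SLC2A1 and LYZ were named outside that rule, after their values were seen. The members and lists were chosen with earlier results of these data known. Alternatives covered the filter, scaling, floors, the summary of a gene's probe sets, the prior, CLGL-90 as its own group, the gap size and leaving out each line.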

Additional observations from a re-analysis of the deposited data

How the results depend on the processing

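No member and no probe set of a member passed the limma threshold under any alternative (3 to 7 members at an unadjusted p under 0.05; lowest adjusted p 0.140, PGM2 without GL-1). Over all genes, the count passing was 1, and became 9 with the filter at log2 7, 8 after quantile normalization, 8 after centring, 4 with values raised to the highest control, 3 with the mean of a gene's probe sets, 11 with the probe set of largest range, 10 with an intensity trend and a robust prior, and 0 (623 unadjusted) with CLGL-90 as its own group. Leaving out any 1 line gave 0 to 0 genes passing in limma (474 to 767 unadjusted); the cause was not tested. The count of members with a range of at least log2 2 ran from 14 (without CLL-1390) to 21. Members with a line that far above the rest numbered 4 with a gap of log2 1, in place of 2. Members with a line that far below numbered 3, in place of 5, with values raised to the highest control. The median difference of the members ran from -0.30 to -0.06. Of the differences recomputed, the median over the members and those of the 10 members whose groups do not overlap kept their sign. For the 10 members, leaving out a line or setting CLGL-90 apart could not change the sign in the same probe set. They were picked for having every T-labelled value above both B-labelled values. The median over all genes, -0.03, became 0.02 with values raised to the highest control and 0.003 with CLGL-90 as its own group. In the probe set of largest range, the difference was -1.33 for PGM1 (0.04 in the probe set of highest mean) and -0.90 for P4HA2 (0.11). The range of ENO2 was 8.12 and that of HIF1A 4.08 by the probe set of largest range, and that of EGLN1 was 1.75 by the mean of probe sets. Members near the controls have only bounds. No paired analysis was made, because each array is a different line and the labels match no B-labelled line to a T-labelled one.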

Other observations

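Genes next to the 7 members with a gap of at least log2 2 were read as well, up to 2 on each side in the reference gene order; this look-up was chosen after the values were seen. Of 28 neighbours, 1 had the same gap in the same line: UNC119, a carrier of lipid-modified signalling proteins near ALDOC, stood at 7.39 in 17-71, 9.96 in CL-1, 10.38 in GL-1, 11.21 in CLGL-90 and 10.50 in CLL-1390. The gene between them, PIGS, was lowest in 17-71 too, by only 0.27. Around PGM2, which was at background in 17-71, TBC1D1 was lowest in 17-71 at 7.06 but stood at 7.74 in CLL-1390, and RELL1 stood at 9.84 in 17-71 against 9.69 to 12.60 in the other lines. The genes on either side of PFKM did not share its high value in CLGL-90: SENP1 stood at 7.74 there against 7.58 to 8.11 in the other lines, and ASB8 at 9.21 against 9.16 to 9.54.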
